A study of Mus musculus with 9 samples.

Results

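The transcripts of mitochondrial ribosomal proteins were followed in mouse embryos, in the brown adipose tissue (BAT) that mammals use to make heat. Entries of the deposited expression table were taken as members where the gene symbol began with Mrpl or Mrps followed by a digit, which gave 77 of 30915 entries. Of these, 48 were named for the large subunit (Mrpl) and 29 for the small subunit (Mrps), and 1 of the small subunit entries, Mrps36-ps1, is a pseudogene. The embryos were of 3 ages, E14.5, then E15.5, then E16.5 (E for embryonic day), with 3 arrays at each age and 9 in all. Every group came from wild-type C57Bl6J embryos without treatment, so that age was the only labelled difference. Each array held a separate preparation that pooled the BAT of 3 embryos, which hides the spread between single embryos.

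The mitochondrial ribosome, or mitoribosome, translates the few proteins encoded by mitochondrial DNA, all of them subunits of the oxidative phosphorylation machinery. Its ribosomal RNAs are made inside the mitochondrion, whereas its proteins are encoded in the nucleus, made in the cytosol and imported. Brown adipocytes become rich in mitochondria as they mature and burn fuel there to release heat.

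Values are log2 expression, on which a difference of 1 is a doubling, and each change stands with its standard error (SE) from a limma fit over all entries, as change ± SE. A gene was called where its p, adjusted by the Benjamini-Hochberg method over all 30915 entries, was below 0.05. Levels of different genes were not read as amounts of RNA, because each gene has its own probes, and brightness was used only to mark dim entries. The tissue label was set against brown adipocyte markers, of which 14 of 15 were higher at E15.5 than at E14.5 and 1, Zic1, was lower. Markers of some other cells moved over the same day: 17 of 18 skeletal muscle markers, 9 of 12 macrophage and leukocyte markers and 7 of 12 neural and Schwann cell markers were lower at E15.5. Fewer moved in 2 further lists, with 4 lower and 1 higher of 12 endothelial markers and 3 lower and 0 higher of 13 erythroid markers. Of all entries 9.07% were called higher and 11.2% lower on that day. The summed linear signal of the muscle markers was 20341 to 21135 at E14.5, 10287 to 12701 at E15.5 and 9635 to 12251 at E16.5, and that of the brown adipocyte markers was 8027 to 9304, 19220 to 19481 and 33118 to 35426 at the same stages. None of the brown adipocyte, muscle, leukocyte or endothelial markers lay below the median brightness of all entries. Below it lay 3 erythroid markers (Hbb-bh1, Klf1 and Gata1) and 3 neural and Schwann cell markers (Tubb3, Nefm and Elavl4). In such bulk tissue, fewer cells of a type and less RNA per cell cannot be told apart, and the part of cell composition in the results below was not tested. E16.5 replicate 2 stood apart, with a median over all entries of 5.05 against 4.79 to 4.85 on the other 8 arrays.

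Nearly all mitoribosomal protein transcripts rose over the 2 days. At E16.5 against E14.5, 74 of 77 members were higher and 0 were lower, with a median change of 1.09. The median over all entries was 0.14, and 22% of all entries were called higher and 17.4% lower. In 75 members all 3 E16.5 arrays lay above all 3 E14.5 arrays, which was so for 30.9% of entries. The change passed 1, a doubling, in 43 members. At an unadjusted p below 0.05 limma also found 0 members lower. The moderated F-test for any change over the 3 stages called 73 members, among 35.1% of all entries. Without E16.5 replicate 2, 74 members were still called higher.

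**Figure D1:**
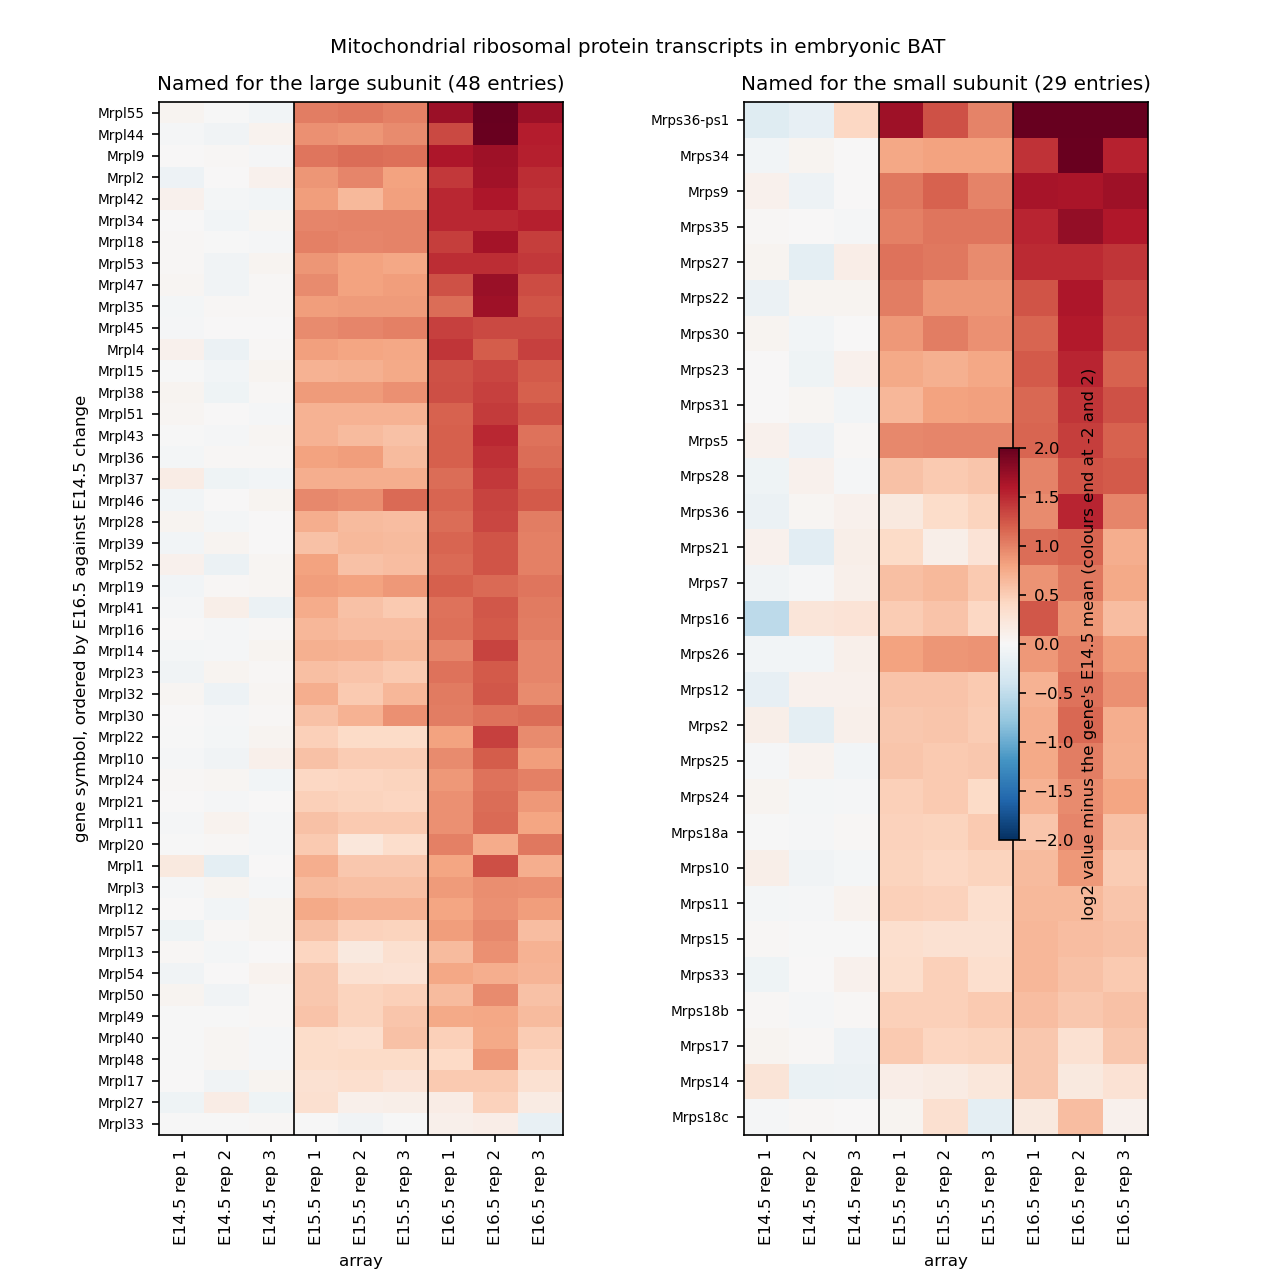
Log2 value of each member on each of the 9 arrays (columns, E14.5 to E16.5) minus that gene's E14.5 mean, for the 48 large subunit entries (left) and the 29 small subunit entries (right), with the strongest rise at the top. The colour deepens from E14.5 over E15.5 to E16.5 in nearly every row, and Mrpl33, Mrpl27 and Mrps18c at the bottom stay pale.

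Among the large subunit members, Mrpl55 rose most. Mrpl55, a protein that bacterial ribosomes lack, had log2 values of 8.31, 8.24 and 8.20 at E14.5, of 9.27, 9.31 and 9.25 at E15.5, and of 9.96, 10.42 and 9.96 at E16.5. No array of one stage overlapped with those of the next, and the change at E16.5 against E14.5 was 1.86 ± 0.12 (adjusted p = 3.13e-07). Mrpl44, which has the fold of an RNA-cleaving enzyme and whose mutations in humans cause a cardiomyopathy of infancy, had 6.39, 6.34 and 6.48 at E14.5, 7.33, 7.29 and 7.36 at E15.5 and 7.73, 8.39 and 7.98 at E16.5. Its stages were also separate, although the E16.5 arrays were spread over a wider range than those of the earlier stages. Its change was 1.63 ± 0.14.

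Mrpl9, the counterpart of a bacterial protein on the outer face of the large subunit, was among the most even members within a stage. It had 8.34, 8.35 and 8.30 at E14.5, 9.40, 9.44 and 9.43 at E15.5 and 9.94, 10.03 and 9.88 at E16.5, for a change of 1.62 ± 0.07. Mrpl2, whose bacterial counterpart lies close to the site of peptide bond formation, rose by 1.53 ± 0.10. Mrpl42 also rose by 1.53 ± 0.09, and Mrpl34 by 1.52 ± 0.07. Mrpl3, another protein whose bacterial counterpart reaches toward the peptide bond site, rose less, by 0.90 ± 0.07, and Mrpl12, the counterpart of the bacterial stalk protein that recruits elongation factors, by 0.84 ± 0.08.

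Among the small subunit members, 3 rose by similar amounts. Mrps9, whose bacterial counterpart sits in the head of the small subunit, had 7.77, 7.59 and 7.70 at E14.5, 8.75, 8.87 and 8.69 at E15.5 and 9.34, 9.33 and 9.38 at E16.5, for a change of 1.66 ± 0.08. Mrps34, whose mutations in humans cause a form of Leigh syndrome, had 7.02, 7.13 and 7.09 at E14.5, 7.86, 7.88 and 7.88 at E15.5 and 8.53, 9.06 and 8.62 at E16.5, for a change of 1.66 ± 0.12. Mrps35 had 8.35, 8.34 and 8.30 at E14.5, 9.34, 9.40 and 9.40 at E15.5 and 9.86, 10.08 and 9.93 at E16.5, for a change of 1.63 ± 0.08. In each of these genes the 3 stages did not overlap. Mrps27, a protein of the RNA-binding pentatricopeptide repeat family, rose by 1.47 ± 0.10, and Mrps22, whose mutations in humans cause a severe mitochondrial disease, by 1.40 ± 0.11. Mrps12, which corresponds to the bacterial protein at the decoding site, rose by 0.90 ± 0.11.

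The pseudogene entry Mrps36-ps1 had a larger change than any other member, 2.54 ± 0.25 at E16.5 against E14.5 (adjusted p = 9.56e-06). Its values were 5.79, 5.86 and 6.44 at E14.5, 7.73, 7.30 and 7.02 at E15.5 and 8.41, 9.07 and 8.22 at E16.5. The stages were separate but each was spread widely, and the standard deviation (SD) of 0.36 at E15.5 and 0.45 at E16.5 was above that of every other member at those stages. A processed copy can be near-identical to its parent gene, so which of them the probes measured is uncertain. The parent gene Mrps36, which encodes a protein now assigned to the 2-oxoglutarate dehydrogenase complex rather than the ribosome, had 4.59, 4.74 and 4.79 at E14.5, 4.89, 5.07 and 5.15 at E15.5 and 5.64, 6.22 and 5.68 at E16.5, for a change of 1.14 ± 0.15.

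Only 3 members passed none of the comparisons, Mrpl27, Mrpl33 and Mrps18c, all counterparts of bacterial ribosomal proteins. Mrpl33 had 4.80, 4.80 and 4.83 at E14.5, 4.80, 4.74 and 4.80 at E15.5 and 4.91, 4.95 and 4.66 at E16.5, for a change of 0.03 ± 0.09 (adjusted p = 0.803), whose sign turned under other scalings of the arrays. Mrps18c had 4.06, 4.10 and 4.08 at E14.5, 4.13, 4.40 and 3.88 at E15.5 and 4.27, 4.70 and 4.16 at E16.5, for a change of 0.30 ± 0.15 (adjusted p = 0.145), and Mrpl27 had a change of 0.26 ± 0.11 (adjusted p = 0.0923). The stages overlapped in Mrpl33, and in Mrps18c and Mrpl27 the E15.5 arrays overlapped those of both other stages. In these 3 and in Mrps14, whose E14.5 and E16.5 arrays overlapped, the mean over the 9 arrays lay below 4.87, the median of all entries. Dim entries can understate a change, and the part of brightness here was not tested. Mrps14 was called at E16.5 against E14.5 alone, with 0.34 ± 0.12 (adjusted p = 0.0475), a call that was lost in 11 of the 15 alternative fits, among them those without E14.5 replicate 2 or 3, any single E15.5 array, or E16.5 replicate 1 or 3.

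**Figure D2:**
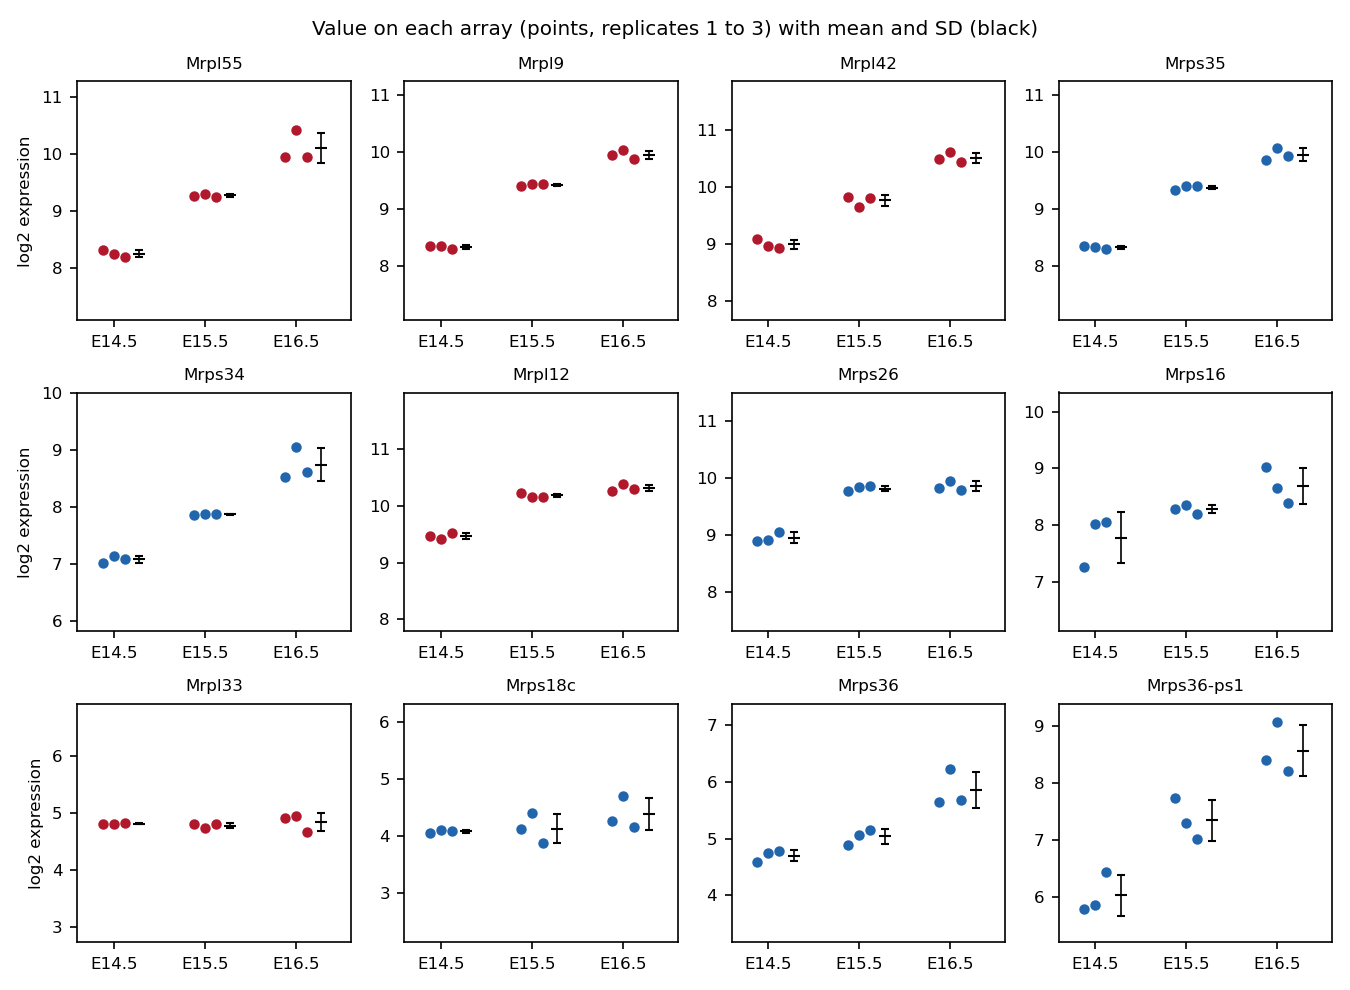
Log2 expression of 12 members on each array (points, replicates 1 to 3 of each stage from left to right) with the stage mean and SD (black), on vertical axes of equal span, large subunit members in red and small subunit members in blue. Mrpl55, Mrpl9, Mrpl42, Mrps35 and Mrps34 climb in 2 steps, Mrpl12 and Mrps26 mostly in 1 step, and Mrpl33 and Mrps18c stay near their E14.5 level.

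The first day, E15.5 against E14.5, asked which members had already changed by the middle stage. On it 70 of 77 members were higher and 0 lower, with a median change of 0.63 against 0.03 over all entries. Of all entries 9.07% were called higher and 11.2% lower on that day. All 3 E15.5 arrays lay above all 3 E14.5 arrays in 73 members, and in 23.1% of entries. At an unadjusted p below 0.05, limma found 0 members lower. After Mrps36-ps1, with 1.32 ± 0.25, the strongest rises were those of Mrpl9 with 1.09 ± 0.07, Mrps9 with 1.08 ± 0.08, Mrps35 with 1.05 ± 0.08, Mrpl55 with 1.03 ± 0.12 and Mrps27 with 1.03 ± 0.10. Mrpl46, a large subunit protein that bacteria lack, followed with 1.0 ± 0.09.

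On the second day, E16.5 against E15.5, 53 members were higher and 0 lower, with a median change of 0.44 against 0.10 over all entries. The background of this day was 11.2% of entries called higher and 8.46% lower. The E16.5 arrays all lay above the E15.5 arrays in 69 members, and in 20.3% of entries. At an unadjusted p below 0.05, limma again found 0 members lower. Mrps36-ps1 led with 1.22 ± 0.25, followed by Mrps34 with 0.86 ± 0.12, Mrpl55 with 0.84 ± 0.12, Mrps36 with 0.81 ± 0.15, Mrpl42 with 0.76 ± 0.09 and Mrps21, the counterpart of a small bacterial ribosomal protein, with 0.74 ± 0.13. Relative to the E14.5 mean, the median member stood at 0.66, 0.59 and 0.60 on the 3 E15.5 arrays and at 1.04, 1.23 and 0.99 on the 3 E16.5 arrays, the highest being E16.5 replicate 2. That array was the highest of its stage in 60 of 77 members.

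Counted gene by gene, 51 members were called on both days. A further 19 were called on the first day alone, 2 on the second day alone (Mrps21 and Mrps36), and 2 (Mrps14 and Mrps16) only over both days together. How many of all entries fell into each of these patterns was not counted, so the counts have no background. Taken day by day, 9.07% of all entries were called higher on the first day and 11.2% on the second. A call on a single day does not show that the days differed, which was tested separately below. Mrps16, whose mutation in humans causes a fatal mitochondrial disease of infancy, had 7.26, 8.02 and 8.05 at E14.5, 8.29, 8.35 and 8.20 at E15.5 and 9.02, 8.66 and 8.39 at E16.5. The first E14.5 array lay far below the other arrays of that stage, and its E14.5 SD of 0.45 exceeded that of every other member.

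Whether the 2 days differed was tested gene by gene as the second-day change minus the first-day change. In 7 members this difference was called below 0, and in 0 members above it, with 2.41% of all entries called lower and 2.79% higher. At an unadjusted p below 0.05, limma found 20 members lower and 0 higher. Mrps26 had the largest difference, -0.83 ± 0.15 (adjusted p = 0.00887): its values of 8.89, 8.90 and 9.05 at E14.5 gave way to 9.76, 9.83 and 9.85 at E15.5 and to 9.82, 9.95 and 9.79 at E16.5, so that the last 2 stages overlapped. The difference was -0.76 ± 0.15 for Mrpl46, -0.68 ± 0.15 for Mrps5, -0.62 ± 0.12 for Mrpl45, -0.57 ± 0.13 for both Mrpl9 and Mrpl12, and -0.54 ± 0.13 for Mrpl19. Mrpl45 is known to help tether the mitoribosome to the inner membrane. The count of 7 was unsteady: it was 0 without E15.5 replicate 2 or without E15.5 replicate 3, 1 without E15.5 replicate 1, 3 when any single E14.5 array was left out and 24 without E16.5 replicate 2. Over all members the median difference was -0.20, against 0.08 over all entries. Of the 20 proliferation genes, 20 were called lower at E16.5 than at E15.5, and 18 were called lower for the second-day minus first-day change, with a median difference of -0.88. Their part in the members' difference was not tested.

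**Figure D3:**
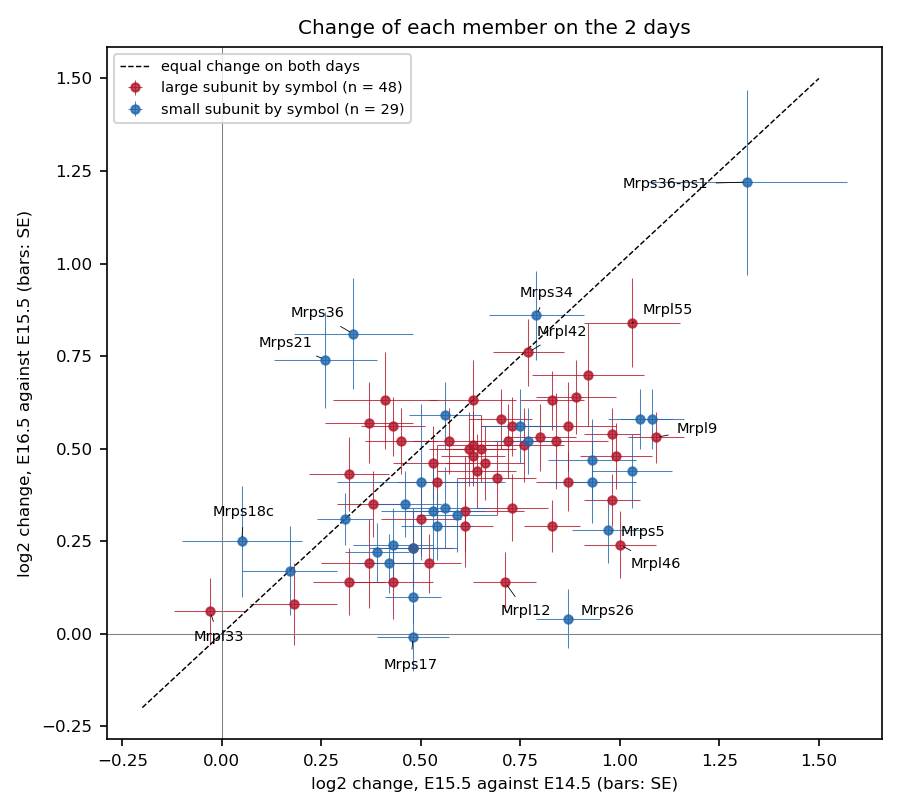
Log2 change of each of the 77 members on the first day (E15.5 against E14.5, horizontal) and the second day (E16.5 against E15.5, vertical), with SE bars, large subunit members in red and small subunit members in blue. Most points lie right of the dashed line of equal change, Mrps26 lies close to 0 on the second day, and Mrps21 and Mrps36 lie to the left.

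The large and small subunits were then compared. On the first day 46 of 48 large subunit members and 24 of 29 small subunit members were higher, with medians of 0.65 and 0.54. On the second day 37 of 48 and 16 of 29 were higher, with medians of 0.48 and 0.34. Over both days 46 of 48 and 28 of 29 were higher, with medians of 1.12 and 0.91. The shares of all entries called higher were 9.07% on the first day, 11.2% on the second and 22% over both. The middle range between the quartiles overlapped widely over both days, from 0.93 to 1.30 in the large subunit and from 0.68 to 1.31 in the small one. Array by array, the large subunit median lay above the small subunit median by 0.16, 0.08 and 0.10 on the E15.5 arrays and by 0.19, 0.17 and 0.23 on the E16.5 arrays, each relative to the E14.5 means. The order of the medians is a description and was not tested. It did not hold in every class of members, as given below.

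The symbols do not follow the ribosome's structure exactly, since the proteins of Mrps30 and Mrps18a lie in the large subunit. With both counted there, and with Mrps36 and its pseudogene left out, the medians over both days were 1.12 for the large and 0.91 for the small subunit. Subunit proteins with names of another kind, such as Chchd1 and Ict1 below, were not added, so these sets remain incomplete. Mrps30 rose by 1.34 ± 0.11 and Mrps18a by 0.71 ± 0.11. The proteins of the 3 Mrps18 genes are related to a single bacterial protein. Mrps18b, whose protein has a place of its own in the small subunit, rose by 0.58 ± 0.07, while the value for Mrps18c is given above. Mrps18b was called on the first day, with 0.48 ± 0.07, and not on the second, with 0.10 ± 0.07 (adjusted p = 0.382), and the difference between its days was not called.

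Members were also split by the unified ribosomal protein nomenclature into 44 named as having a bacterial counterpart and 31 named as particular to mitochondria. Mrps36 and its pseudogene were in neither class. Mrps18a and Mrps18b counted among the 31 by that naming, although their proteins are related to a bacterial one. This split was made after the values had been seen. Over both days all 31 mitochondria-specific members were higher, with a median of 1.24, as were 41 of the 44 conserved members, with a median of 0.99. On the first day the counts were 31 of 31 and 38 of 44, with medians of 0.72 and 0.57, and on the second day 20 of 31 and 31 of 44, with medians of 0.44 and 0.43. Among all entries 22% were called higher over both days, 9.07% on the first day and 11.2% on the second. The 3 conserved members that were not called over both days were the dim Mrpl27, Mrpl33 and Mrps18c. The ranges of the classes overlapped, from 0.56 to 1.86 in the specific and from 0.03 to 1.66 in the conserved members. With the subunits taken by structure, the 29 large conserved members had a median of 1.08 over both days and the 15 small ones 0.87. Among the specific members the order was the reverse, with 1.24 in 21 large and 1.30 in 10 small ones. Their medians were 0.66 and 0.78 on the first day and 0.41 and 0.45 on the second. These orders were not tested.

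The rest of the mitochondrial translation apparatus was described from gene lists, in each case at E16.5 against E14.5. In that comparison 22% of all entries were called higher and 17.4% lower. All 8 mitoribosome-associated proteins with names of another kind were higher, with a median of 0.81. These included Mpv17l2, which takes part in mitoribosome assembly, with 1.75 ± 0.09, Chchd1, a small subunit protein, with 1.13 ± 0.09, Oxa1l, the insertase that receives the new proteins at the inner membrane, with 0.90 ± 0.07, and Ict1, which releases stalled ribosomes from within the large subunit, with 0.74 ± 0.07. Of 25 assembly and rRNA modification factors 22 were higher and 0 lower, with a median of 0.91. Trmt2b, an RNA methyltransferase, rose by 2.01 ± 0.09, the GTPase Mtg1 by 1.89 ± 0.10, the pseudouridine synthase family member Rpusd3 by 1.60 ± 0.10, and Eral1, a chaperone of the small subunit RNA, by 1.56 ± 0.10. The RNA helicase Dhx30 had 0.04 ± 0.12 and the methyltransferase Trmt61b 0.02 ± 0.09, and neither was called.

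Of 18 translation factors and tRNA modifiers 17 were higher and 0 lower, with a median of 1.20. Taco1, the translational activator of cytochrome c oxidase subunit I, had 7.50, 7.43 and 7.37 at E14.5, 8.77, 8.88 and 8.74 at E15.5 and 9.36, 9.85 and 9.62 at E16.5, for a change of 2.18 ± 0.12. Gatb, a subunit of the amidotransferase that completes the glutamine tRNA, rose by 2.01 ± 0.08, the initiation factor Mtif2 by 1.88 ± 0.10 and the elongation factor Gfm1 by 1.52 ± 0.08. All 17 mitochondrial aminoacyl-tRNA synthetases were higher, with a median of 1.11, from Pars2 with 0.32 ± 0.11 to Fars2 with 1.93 ± 0.12. Of 20 mitochondrial transcription and RNA processing genes 18 were higher and 0 lower, with a median of 0.71, led by Fastkd1 with 2.42 ± 0.10.

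The 2 ribosomal RNAs themselves did not show this rise. The small subunit RNA mt-Rnr1 had 12.83, 12.70 and 12.77 at E14.5, 12.75, 12.57 and 12.68 at E15.5 and 12.71, 12.79 and 12.72 at E16.5, for a change of -0.03 ± 0.08 (adjusted p = 0.806). The large subunit RNA mt-Rnr2 had a change of 0.01 ± 0.09 (adjusted p = 0.936). Both lie close to the upper end of the array's scale, where a change can be compressed, and the part of that limit was not tested.

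The members were set beside the genes of the respiratory chain and of the cytosolic ribosome. In the comparison of E16.5 against E14.5, 22% of all entries were called higher and 17.4% lower. Of 92 nuclear oxidative phosphorylation genes 85 were higher and 2 lower at E16.5 than at E14.5, with a median of 1.30. Cytosolic ribosomal protein genes, 87 in number and taken by symbol, had 8 higher, 24 lower and a median of -0.06. The symbol pattern also took in Rps19bp1, which is not a ribosomal protein, and paralogues such as Rpl10l and Rpl3l. Some entries, such as Rpl13 and Rps3a1, lay below the median brightness of 4.87 at every stage. Rplp0, a stalk protein of the cytosolic ribosome, fell by 1.22 on the log2 scale (SE 0.10). The stalk proteins Rplp1, with 0.04 ± 0.07 (adjusted p = 0.65), and Rplp2, with -0.15 ± 0.10 (adjusted p = 0.246), were not called. Without E14.5 replicate 1 the cytosolic genes called higher numbered 3, and without E14.5 replicate 2 or 3 they numbered 4. Those called lower numbered 18 to 35 when 1 array was left out. On single arrays, the median of the cytosolic ribosomal protein genes relative to E14.5 was -0.09, 0.07 and -0.20 at E16.5, where the median of the respiratory genes was 1.29, 1.39 and 1.30.

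**Figure D4:**
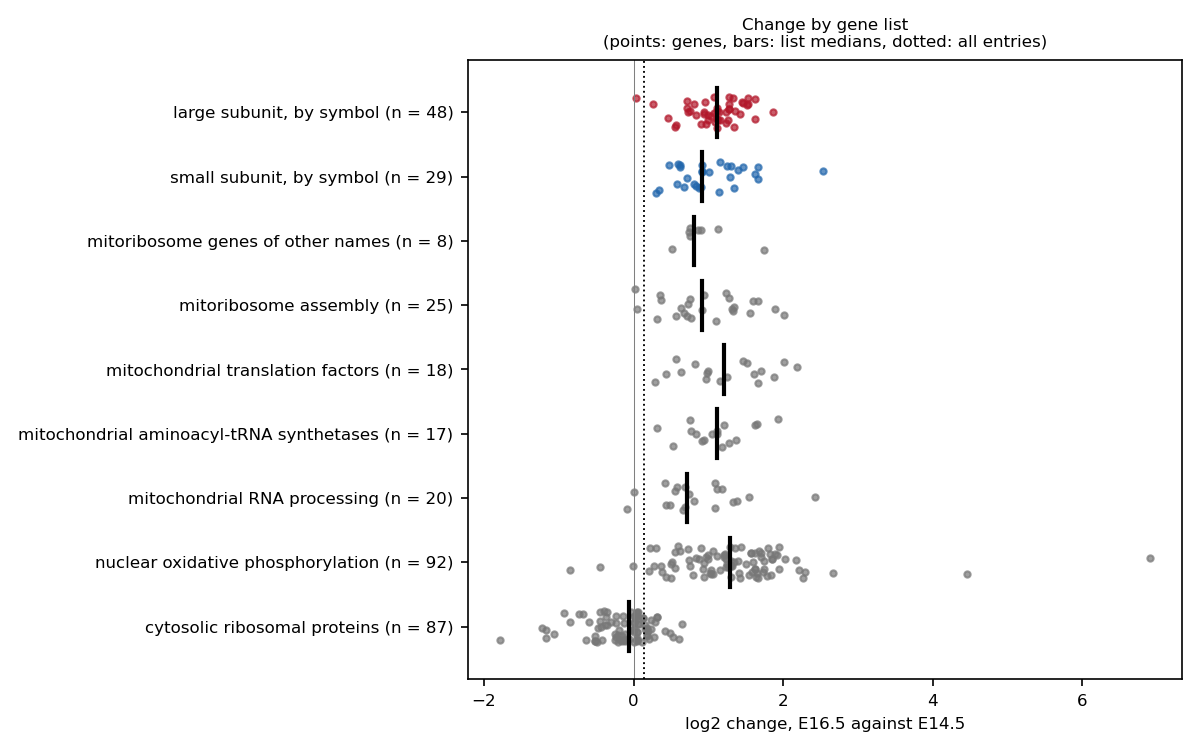
Log2 change at E16.5 against E14.5 of each gene (points) in 9 gene lists, with list medians as black bars and the median of all entries as a dotted line. The large and small subunit members and the other mitochondrial lists lie mostly to the right of the dotted line, and the cytosolic ribosomal proteins are centred near 0.

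Regulators of genes for mitochondria were read from a list of 14 transcription factors and coactivators. Of these 7 were higher and 4 lower at E16.5 than at E14.5, beside 22% and 17.4% of all entries. Tfam, among those higher with 0.74 ± 0.09, acts on mitochondrial DNA rather than on nuclear genes. It was also counted with the transcription and RNA processing genes above. The coactivators Ppargc1a and Ppargc1b rose by 3.21 ± 0.09 and 2.53 ± 0.11, and the estrogen-related receptor Esrra by 2.21 ± 0.09. Gabpa, the DNA-binding subunit of an ETS family factor, rose by 0.87 ± 0.10, while Gabpb1, a partner subunit of the same factor, had -0.30 ± 0.08 (adjusted p = 0.014). Nrf1 had -0.22 ± 0.10 (adjusted p = 0.121) and Yy1 -0.10 ± 0.09 (adjusted p = 0.374), and neither was called. Myc and the coactivator relative Pprc1 fell by 1.31 and 1.21 on the log2 scale (SE 0.08 and 0.07). A transcript level does not measure a factor's activity.

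Because the members moved together, their promoters were searched for 6 short motifs on both strands, in windows of 250 bases before to 50 bases after the start of each gene taken from RefSeq (build GRCm38.p6). Of the 77 members 67 were matched to 73 promoters. The ETS core CCGGAAG stood in 34.2% of the members' promoters and in 8.86% of all 32851 promoters of the same length. The shares were 9.59% and 1.75% for the NRF1-type motif GCGCATGCG, 11.0% and 1.4% for the YY1-type motif AAGATGGCG, 5.48% and 4.72% for the estrogen-related receptor type AAGGTCA, 9.59% and 7.15% for the E-box CACGTG, and 6.85% and 13.6% for TATAAA. The NRF1-type motif and its reverse share 8 of 9 letters in the palindrome GCGCATGCGC, so that 1 site can match on both strands, and the E-box is its own reverse. The 7 promoters with an E-box belonged to 5 of the 67 members, since Mrpl2 has 3 promoters that hold it. The members' promoters were also richer in G and C, with a median of 58.3% against 52.7% for all promoters and 56.3% for those of protein-coding genes. Among promoters of protein-coding genes alone, a comparison added after the shares were seen, the ETS core stood in 11.6%, the NRF1-type motif in 2.35%, the YY1-type in 1.83%, the estrogen-related receptor type in 4.08%, the E-box in 7.84% and TATAAA in 12.6%.

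The following windows hold the 100 bases before the start of 6 members, with every match to the ETS, NRF1-type or YY1-type letters in capitals, and were chosen after the motif shares were seen. Mrpl22, whose bacterial counterpart lines the exit tunnel, holds an ETS core and an NRF1-type match. Mrpl43 and Mrps27 hold ETS cores, Mrpl9 the NRF1-type palindrome and Mrpl36 a YY1-type match. Mrpl27 is shown for contrast, since it holds an ETS core and was not called.
Mrpl22, chr11:58171564-58171663, plus strand: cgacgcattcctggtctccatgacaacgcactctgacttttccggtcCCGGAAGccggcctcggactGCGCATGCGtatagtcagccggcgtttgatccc
Mrpl43, chr19:45006443-45006542, minus strand: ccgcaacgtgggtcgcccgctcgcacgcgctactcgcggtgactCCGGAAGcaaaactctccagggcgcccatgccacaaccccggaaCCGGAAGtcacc
Mrps27, chr13:99344686-99344785, plus strand: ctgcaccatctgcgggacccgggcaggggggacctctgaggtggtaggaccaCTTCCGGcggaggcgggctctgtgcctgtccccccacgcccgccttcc
Mrpl9, chr3:94443236-94443335, plus strand: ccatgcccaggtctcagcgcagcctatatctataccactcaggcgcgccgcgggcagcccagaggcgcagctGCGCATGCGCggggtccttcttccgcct
Mrpl36, chr13:73330909-73331008, plus strand: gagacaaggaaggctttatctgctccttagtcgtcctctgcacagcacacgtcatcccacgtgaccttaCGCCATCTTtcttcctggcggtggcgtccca
Mrpl27, chr11:94653691-94653790, plus strand: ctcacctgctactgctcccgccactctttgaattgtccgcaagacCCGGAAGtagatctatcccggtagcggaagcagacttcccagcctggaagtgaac

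The members' changes were then read by motif, as a description with no test. At E16.5 against E14.5 the median was 0.91 for the 25 members with an ETS core and 1.10 for those without. The dim and uncalled Mrpl27, Mrpl33 and Mrps18c are all among the 25, and their part in this order was not tested. It was 1.04 for the 7 members with an NRF1-type match and 1.04 without, and 1.25 for the 8 members with a YY1-type match and 1.01 without. The cytosolic ribosomal protein genes, whose transcripts did not rise as a group, held the ETS core in 33.3% of their promoters, close to the members' share. The respiratory genes held it in 21.8%. The other motifs gave other orders. The NRF1-type motif stood in 9.59% of the members' promoters, 12.8% of those of respiratory genes and 3.85% of those of cytosolic ribosomal protein genes. For the YY1-type motif the shares were 11.0%, 8.97% and 7.69%, and for the estrogen-related receptor type 5.48%, 10.3% and 8.97%. A match of letters shows neither a bound factor nor a cause.

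Some of these promoters lie between 2 genes that are read away from each other. In the reference gene table, 24 members had a protein-coding gene starting within 1000 bases on the other strand and pointing away. Of the 22 partners that are no members, 9 were higher and 7 lower at E16.5 than at E14.5, with a median change of 0.08. The background was the 22% of entries called higher and 17.4% called lower named above. The 9 that rose are given with their member's change first. Mrps12 and Sars2, the mitochondrial seryl-tRNA synthetase, had 0.90 ± 0.11 and 1.18 ± 0.10, Mrps27 and Ptcd2, a mitochondrial RNA processing protein, 1.47 ± 0.10 and 1.38 ± 0.08, and Mrpl43 and Peo1, the mitochondrial DNA helicase Twinkle, 1.27 ± 0.11 and 0.85 ± 0.11. Chosen after its value was seen, Mrpl47 and the complex I subunit Ndufb5 had 1.43 ± 0.12 and 1.06 ± 0.08. Mrpl2 and the kinesin light chain gene Klc4 had 1.53 ± 0.10 and 1.18 ± 0.11. Also named after their values were seen, Mrpl37 and Cyb5rl had 1.24 ± 0.10 and 1.11 ± 0.16, Mrpl14 and Tmem63b 1.11 ± 0.10 and 0.54 ± 0.08, Mrpl41 and Pnpla7 1.12 ± 0.10 and 0.36 ± 0.10, and Mrpl32 and the proteasome subunit gene Psma2 1.08 ± 0.10 and 0.34 ± 0.11.

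The other 13 partners were not called or were lower. Mrpl18 rose by 1.47 ± 0.09, whereas Tcp1, a subunit of the cytosolic chaperonin, had 0.03 ± 0.13 (adjusted p = 0.846). Mrps5 rose by 1.25 ± 0.09, whereas the zinc finger gene Zfp661 had -0.08 ± 0.08 (adjusted p = 0.417). Mrpl57 rose by 0.81 ± 0.10 and its mitotic partner Ska3 had -0.49 ± 0.10 (adjusted p = 0.00159). Mrpl46 and Mrps11, both members and partners of each other, rose by 1.24 ± 0.09 and 0.62 ± 0.08. Without E14.5 replicate 2, or without E14.5 replicate 3, 4 partners were called lower in place of 7. Whether each pair differed was not tested.

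**Figure D5:**
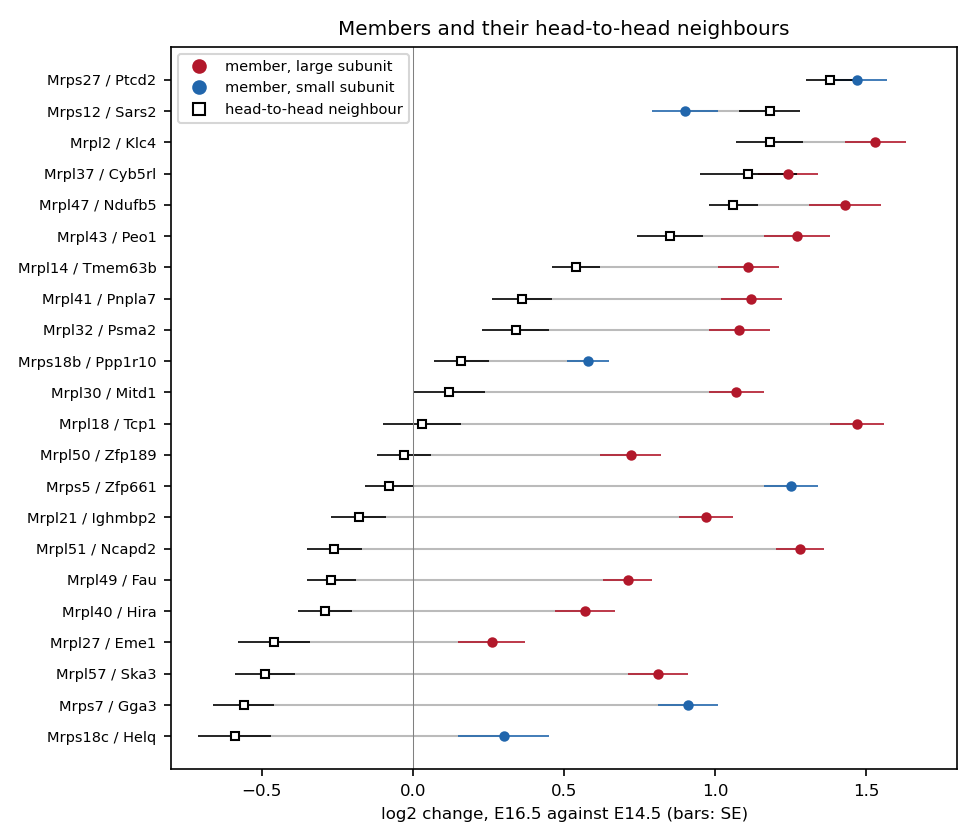
Log2 change at E16.5 against E14.5 of members (filled circles) and their protein-coding head-to-head neighbours (open squares) in 22 pairs, with SE bars, ordered by the neighbour's change. Every member's point lies to the right of 0, and the neighbours lie on both sides of it, from Helq and Gga3 at the bottom to Sars2 and Ptcd2 at the top.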

How the data were processed

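The 9 BAT arrays (MoGene-2_0-st, 3 per stage) were used. Per the submitters' processing notes, the authors used RMA and Partek 7.0, and the deposited values are log2 expression. RMA removes background, normalizes arrays and summarises probes. The sources used here do not give the annotation, the build or the summary to 1 entry per symbol. The number of arrays limits the precision, and no detection calls were used, so dim genes may lie below background.

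All 30915 entries were fitted with limma 3.58.1 in R 4.3.3 (lmFit and eBayes, stage as the only term, 6 residual degrees of freedom), two-sided, with Benjamini-Hochberg adjustment over all entries and a threshold of 0.05. Scripts were tested on simulated data. Members, gene lists, the motifs and tests were chosen with earlier results of these data known. Named members were those with the 10 largest rises per comparison with non-overlapping arrays, those whose 2 days differed, and a panel of interest. All 77 symbols were in the reference table (GRCm38.p6). Alternatives were other scalings, a brightness filter, array weights, a trended robust fit, a replicate block, fits of 6 arrays and leaving out each array.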

Additional observations from a re-analysis of the deposited data

Results flagged for a closer look

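In 7 members the second-day change differed from the first-day change in limma's test of the difference itself, and each of the 7 had the smaller change on the second day. The difference was -0.83 for Mrps26, -0.76 for Mrpl46, -0.68 for Mrps5, -0.62 for Mrpl45, -0.57 for Mrpl9, -0.57 for Mrpl12 and -0.54 for Mrpl19. Each of the 7 calls was lost in some alternative fits, from 2 fits for Mrps26 to 8 for Mrpl19.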

How the results depend on the processing

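No member was called lower in any stage comparison under any alternative. The large subunit median lay above the small subunit median in all 17 settings of each comparison, which reuse the same arrays. The gap was 0.06 to 0.15 on the first day, 0.08 to 0.15 on the second and 0.17 to 0.23 over both. Among the mitochondria-specific members alone, the main fit gave the reverse order, as stated above. The members called lower for second-day minus first-day change numbered 22 with array weights, 15 with the brightness filter, 13 after median centring, 15 after quantile normalization, 14 with the trended robust fit and 3 with the replicate block, in place of 7, and 0 to 24 when 1 array was left out; the cause was not tested. The large subunit median of the second day was 0.41 after quantile normalization and 0.39 to 0.52 when 1 array was left out. Cytosolic ribosomal protein genes called higher over both days numbered 4 in the fit of 6 arrays and 3 to 8 when 1 array was left out. Those called lower numbered 18 to 35 when 1 array was left out. With the replicate block 68, 52 and 74 members were higher on the first day, the second day and over both. Leaving out 1 array gave 63 to 71, 44 to 55 and 73 to 74. The 9 correlations of same-numbered arrays ran from -0.134 to 0.1. Those with a highest value among differently numbered arrays reached 0.113, so the numbers showed no sign of pairing, though such correlations cannot exclude it.

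Among the members recomputed one by one, signs turned for 4, none of them called there. Over both days Mrpl33 had -0.00 with array weights, -0.03 after median centring, -0.04 after quantile normalization, and -0.03 to 0.12 when 1 array was left out (-0.01 without E16.5 replicate 1), and on the second day -0.01 and -0.03 after the same centring and normalization. Mrps26 on the second day had -0.00, -0.03 and -0.03 with array weights, median centring and quantile normalization, and -0.01 to 0.07 when 1 array was left out. Mrps18c on the first day had -0.08 to 0.18 when 1 array was left out, and Mrpl27 on the second day -0.01 after quantile normalization and -0.02 to 0.15 when 1 array was left out. Counted per member, comparison and alternative, named members lost their call 78 times and gained one 15 times. Dim members limit what the arrays can show.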
